A study of Mus musculus with 5 samples.

Results

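Ribosome footprints were followed on 8 genes of presynaptic vesicle fusion and vesicle retrieval, Snap25, Stx1a, Nsf, Unc13a, Dnm1, Synj1, Amph and Cltc. They were chosen by symbol, and 7 of the 8 were found among the 10329 genes of the count table. The exception, Snap25, is listed at 0 TPM in all 5 libraries of the second table, which is not read as a level, so nothing further is given for it. The slices were hippocampal-cortical, from male wild-type C57BL/6N mice of 28 to 35 days of age. They were kept for 0, 5, 10, 30 or 60 min with homoharringtonine (HHT), an alkaloid that blocks the start of elongation while ribosomes already under way run off their mRNAs. Per the labels' protocols HHT was at 20 µM and the vehicle was 0.05% DMSO, and each library is 1 pool of 10 slices from 2 to 3 mice. No library of vehicle alone at 5 to 60 min was analysed here, so time on HHT cannot be told apart from time in the vehicle or from time after slicing. With 1 library per time, no difference between libraries has a replicate check.

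At a nerve terminal, vesicles fuse when a vesicle SNARE protein zips up with the plasma membrane SNAREs syntaxin 1 and SNAP-25. Munc13 proteins prepare vesicles for this step, and NSF, an ATPase, takes the spent SNARE complexes apart with its SNAP adaptors. The membrane is then retrieved: clathrin triskelia of heavy and light chains coat the bud, amphiphysin bends the neck and recruits partners, dynamin cuts it, and synaptojanin removes phosphates from inositol lipids so that the coat comes off. During run-off a coding sequence (CDS) keeps footprints until the last ribosome has passed the part that is counted, so a long CDS is known to clear later than a short one.

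The libraries held 7155147, 2787749, 2022152, 1504748 and 1346175 counts in time order. The signal used below is the authors' deposited signal, counts per kilobase of CDS, with 600 nt taken off each CDS, scaled by a factor for each library. Intervals are exact 95% intervals on counts (Poisson for levels, conditional binomial for ratios), and they cover counting error only, since reads without molecular identifiers are not independent molecules. Over all 10329 genes the median ratio of this signal to 0 min was 0.333, 0.268, 0.223 and 0.181 at 5, 10, 30 and 60 min. All 9 neuronal markers checked (among them Rbfox3, Tubb3 and Camk2a) had counts in every library, and so did the 6 astrocyte, 4 oligodendrocyte, 5 microglial and 4 endothelial or mural markers with rows in the count table. Summed signal at 60 min over that at 0 min was 0.242 for the neuronal markers, 0.141 for the astrocyte, 0.0732 for the oligodendrocyte, 0.0371 for the microglial and 0.190 for the endothelial and mural markers. Such sums follow the most abundant genes, and single markers of different types overlapped. Their ratios ran from 0.130 (Rbfox3) to 0.326 (Slc17a7) for neurons and from 0.0961 (Aldh1l1) to 0.171 (Aqp4) for astrocytes. For microglia they ran from 0.0134 (C1qa) to 0.162 (Tmem119, 3 counts at 60 min). The part of cell makeup in the values below was not tested. In bulk slices fewer cells of a type and fewer footprints per cell cannot be told apart.

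The genes lie in GRCm38, the assembly behind mm10, as follows. Of the fusion genes, Stx1a (NM_016801) is on chromosome 5 from 135023482 to 135051100, Nsf (NM_008740) on chromosome 11 from 103821782 to 103954056, and Unc13a (NM_001029873) on chromosome 8 from 71624125 to 71671774. Of the retrieval genes, Dnm1 (NM_001301737) is on chromosome 2 from 32308471 to 32353349, Synj1 (NM_001164483) on chromosome 16 from 90936092 to 91013727, Amph (NM_001289546) on chromosome 13 from 18948142 to 19154032, and Cltc (NM_001003908) on chromosome 11 from 86694352 to 86757567. Snap25 lies on chromosome 2 from 136713439 to 136782428. The CDS lengths fall into 3 ranges: Stx1a has 867 nt, Amph 2073 nt, Nsf 2235 nt and Dnm1 2555 nt, while Synj1 has 4824 nt, Cltc 5028 nt and Unc13a 5139 nt. The length of Dnm1 is 1 of 22 in the table that are not a multiple of 3.

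Before HHT, Nsf and Dnm1 carried the densest footprints of the 7 and Unc13a the sparsest. Per kilobase the signal at 0 min was 12165 for Nsf (11996 to 12335), 10947 for Dnm1 (10801 to 11094) and 7473 for Cltc (7393 to 7554). It was 4075 for Stx1a (3836 to 4324), 1589 for Synj1 (1551 to 1627), 1425 for Amph (1365 to 1487) and 692 for Unc13a (668 to 717). No neighbours in this order had overlapping counting intervals, and the highest was 17.6 times the lowest. The 3 densest stood at ranks 77, 86 and 146 of all genes, and Unc13a at rank 2207. This order did not last: Cltc was first at 5 and 10 min, and Nsf and Dnm1 led again at 30 and 60 min. At 60 min Nsf (1834, 1768 to 1901) and Dnm1 (1833, 1773 to 1895) had overlapping intervals, and the highest of the 7 was 9.34 times the lowest.

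**Figure D1:**
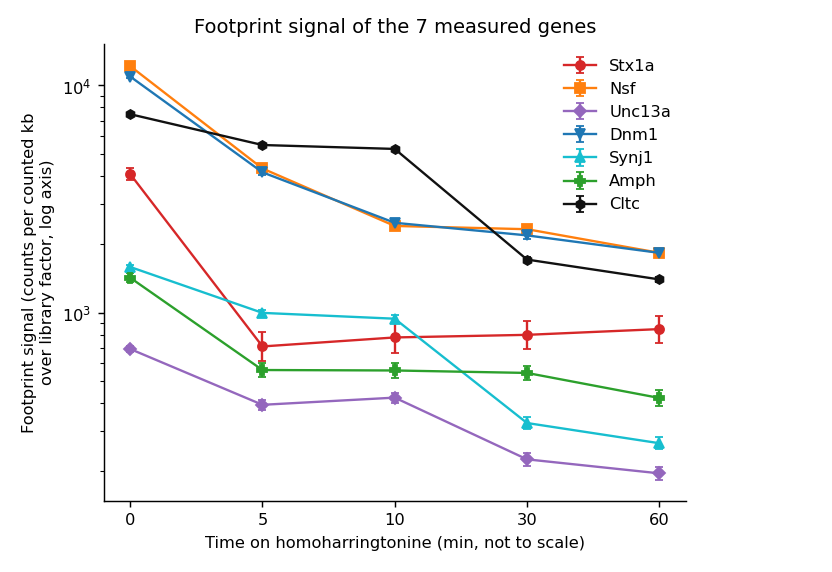
Deposited footprint signal per counted kilobase (log axis) of the 7 measured genes at 0, 5, 10, 30 and 60 min of HHT, 1 library per time, with exact Poisson 95% intervals as bars. Cltc and Synj1 stay high until 10 min and drop by 30 min, Stx1a drops by 5 min and is then level, and Amph stays level from 5 to 30 min.

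Stx1a, the syntaxin of the plasma membrane, had the shortest CDS and was already at its low level at the earliest time. It had 1088, 183, 172, 188 and 220 counts at 0, 5, 10, 30 and 60 min. Its signal ratio to 0 min was 0.174 (0.148 to 0.204), 0.191 (0.162 to 0.224), 0.196 (0.167 to 0.229) and 0.208 (0.179 to 0.240) at 5, 10, 30 and 60 min. The 4 treated libraries thus lay close together and far below the untreated one. None of the 3 steps after 5 min was beyond counting error: the ratio was 1.10 for 10 against 5 min (0.884 to 1.36), 1.03 for 30 against 10 min (0.830 to 1.27) and 1.06 for 60 against 30 min (0.868 to 1.29). Stx1a was the only one of the 7 whose signal at 60 min was not under that at 30 min, where 9.38% of 4543 genes whose counts in the 2 libraries summed to at least 100 were likewise not lower.

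Nsf, the ATPase that recycles SNARE proteins, was lower at 5 min, lower again at 10 min and then level to 30 min. It had 19889, 6803, 3260, 3358 and 2918 counts at 0, 5, 10, 30 and 60 min. The signal ratio to 0 min was 0.354 (0.345 to 0.364), 0.198 (0.191 to 0.205), 0.192 (0.185 to 0.199) and 0.151 (0.145 to 0.157) at 5, 10, 30 and 60 min. Between 10 and 30 min it was level, with a ratio of 0.968 whose interval (0.922 to 1.02) includes 1. Of the loss seen at 60 min, 76.0% was reached at 5 min and 94.4% at 10 min.

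Unc13a, the main Munc13 priming factor of excitatory terminals, had the longest CDS and kept more than most mRNAs at the end. It had 3141, 1722, 1589, 905 and 867 counts in time order. Its ratio was 0.568 (0.535 to 0.603), 0.611 (0.575 to 0.649), 0.327 (0.303 to 0.352) and 0.284 (0.263 to 0.306) at 5, 10, 30 and 60 min. The signal at 10 min was 1.08 times that at 5 min (1.00 to 1.15), and of all 5468 genes with enough counts 24.8% were likewise not lower in that step. The lowest of the 3 later steps came between 10 and 30 min, to 0.535 of the earlier signal (0.493 to 0.581).

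Among the retrieval genes, Dnm1, the neuronal dynamin that pinches vesicles off, ran nearly the same course as Nsf in counts. It had 21401, 7824, 4025, 3772 and 3488 counts in time order. Its ratio was 0.379 (0.369 to 0.389), 0.227 (0.220 to 0.235), 0.200 (0.193 to 0.207) and 0.167 (0.162 to 0.174) at 5, 10, 30 and 60 min. Over the 4 log2 ratios the Euclidean distance between Nsf and Dnm1 was 0.27, the smallest of the 21 pairs among the 7 genes. The likeness is not particular to this pair. Among genes outside the 7 with at least 500 counts at 0 min, 59 lay within 0.25 of Nsf and 56 within 0.25 of Dnm1. In TPM Nsf and Dnm1 differed: the log2 folds were 0.84, -0.24, -0.27 and -0.28 for Dnm1 and 0.18, -0.11, 0.62 and -0.86 for Nsf.

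Synj1, the lipid phosphatase that helps uncoat vesicles, and Cltc, the clathrin heavy chain, were the next closest pair, at a distance of 0.40. Of the genes outside the 7 searched in the same way, 27 lay within 0.25 of Synj1 and 24 within 0.25 of Cltc. Synj1 had 6712, 4068, 3290, 1217 and 1095 counts in time order, and ratios of 0.628 (0.604 to 0.653), 0.592 (0.568 to 0.617), 0.206 (0.193 to 0.219) and 0.168 (0.157 to 0.179) at 5, 10, 30 and 60 min. Cltc had 33092, 23373, 19272, 6686 and 6037 counts, and ratios of 0.732 (0.720 to 0.744), 0.703 (0.691 to 0.716), 0.229 (0.223 to 0.235) and 0.187 (0.182 to 0.193). Both were nearly level between 5 and 10 min, with steps of 0.943 (0.900 to 0.987) for Synj1 and 0.961 (0.943 to 0.980) for Cltc. In the next step the signal at 30 min was 0.347 of that at 10 min for Synj1 (0.325 to 0.371) and 0.326 for Cltc (0.317 to 0.335). They were the only 2 of the 7 at least 2-fold lower in that step, against 16.3% of 4887 genes. Cltc had reached 33.0% of its 60 min loss at 5 min and Synj1 44.7%, against a median of 83.7% over all genes. All genes are an unlike background here, because both have a long CDS. For the 562 genes of 4000 to under 6000 nt the median ratio was 0.604, 0.601, 0.252 and 0.200 at 5, 10, 30 and 60 min. A level stretch to 10 min and a drop by 30 min are thus common at this length.

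Amph, the neuronal amphiphysin, followed neither course. It had 2099, 795, 679, 705 and 604 counts in time order, and ratios of 0.392 (0.361 to 0.426), 0.391 (0.358 to 0.426), 0.381 (0.349 to 0.415) and 0.296 (0.270 to 0.324) at 5, 10, 30 and 60 min. After the drop by 5 min it was level to 30 min, with steps of 0.996 (0.897 to 1.10) and 0.975 (0.877 to 1.09). At 10 min Nsf, of similar CDS length, was at 0.198. That is itself low beside the median of 0.283 for genes of 2000 to under 3000 nt. Amph had the highest ratio of the 7 at 30 and 60 min, ahead of Unc13a at both times, with overlapping intervals at both.

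Counted over the 7 genes, 4 were at least 2-fold lower than at 0 min at 5 min and 4 at 10 min, against 76.3% of 7632 genes and 84.5% of 7517 genes with at least 100 counts. The 3 above this bound at both times were Unc13a, Synj1 and Cltc. At 30 and 60 min 7 of 7 were at least 2-fold lower, against 97.3% and 98.5% of all such genes, so these counts lie near the background. In the steps between treated libraries 0 of 7 were at least 2-fold lower at 10 than at 5 min (3.77% of all genes) or at 60 than at 30 min (0.616%). No member was at least 2-fold higher in signal in any of these comparisons, where 0% to 0.110% of all genes were (0.0133% for 10 against 0 min, 0.0366% for 10 against 5 min and 0.0409% for 30 against 10 min). The median ratio of the 7 was 0.392, 0.391, 0.206 and 0.187 at 5, 10, 30 and 60 min, beside 0.333, 0.268, 0.223 and 0.181 over all genes. The ratios of the 7 spread 4.20-fold at 5 min, 3.68-fold at 10 min, 1.99-fold at 30 min and 1.96-fold at 60 min.

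Set beside genes of like CDS length, 8 of the 28 member ratios lay outside the quartiles of their class, which by construction leave as many genes outside as inside. The positions below are therefore descriptions. The classes hold genes of any count: of the 1759 genes of 600 to under 1000 nt, 857 had at least 100 counts at 0 min. Quartiles over the deeper genes alone were not computed. At 5 min 6 of the 7 lay within the quartiles of their length class; Cltc, at 0.732, was above the upper quartile of 0.685 of the other 561 genes of 4000 to under 6000 nt. At 10 min it lay at the quartile itself (percentile 75.4, and 72.7 among genes within 10% of its length). Unc13a lay inside its class at 5 and 10 min, at percentile 76.1 at 30 min, and above the upper quartile of 0.259 at 60 min (percentile 82.4). Amph was above the upper quartile of the other 2072 genes of 2000 to under 3000 nt at 10 min (0.375), 30 min (0.288) and 60 min (0.238), and at 30 min 91.0% of that class was lower. Nsf was under the lower quartile of the same class at 10 min (0.219) and within the quartiles at the other times. Dnm1, Synj1 and Stx1a stayed within the quartiles of their classes at all 4 times. Across the 7 genes Spearman's rho between CDS length and signal ratio was 0.79, 0.86, 0.39 and -0.04 at 5, 10, 30 and 60 min. Across all 10329 genes it was 0.70, 0.47, 0.13 and 0.07. These points share the same 5 libraries, and the length also enters the signal, though it cancels in a ratio.

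**Figure D2:**
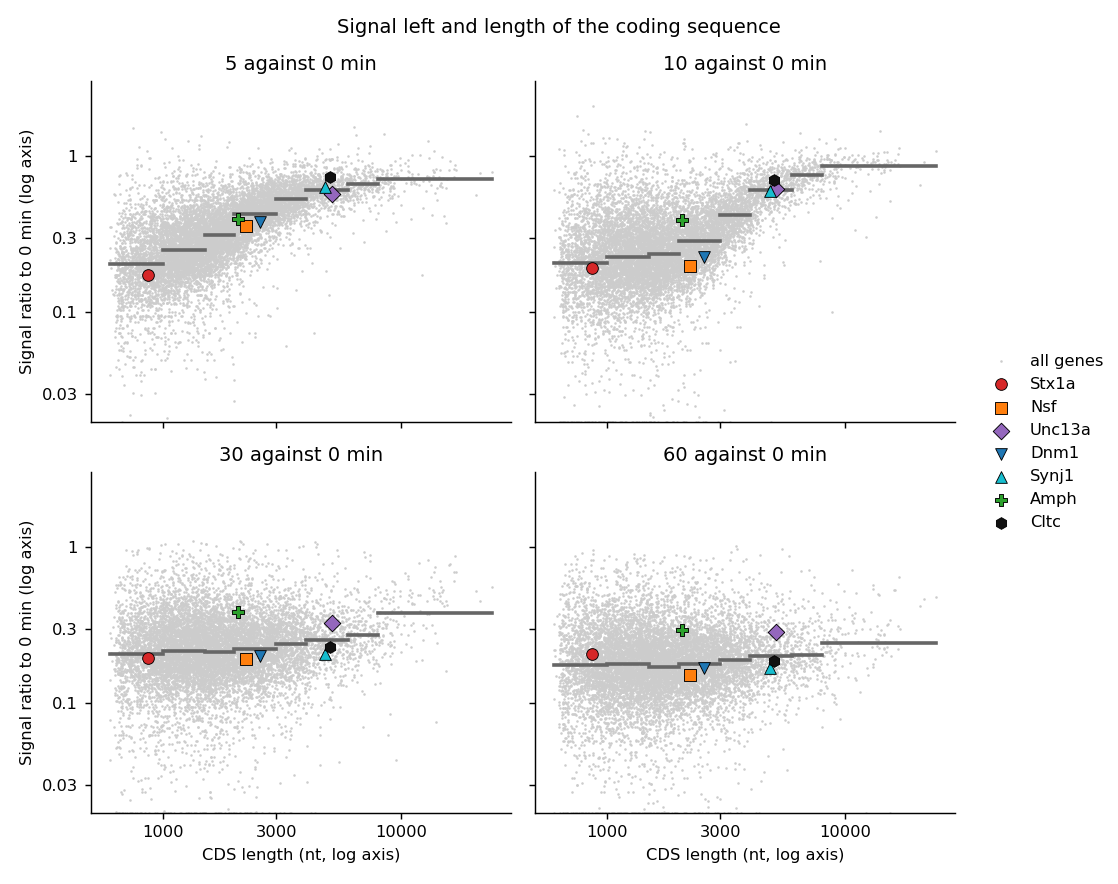
Signal ratio of each time to 0 min (log axis) against CDS length (log axis) for all 10329 genes (grey dots, those under 0.02 drawn at the lower edge), the median of each of 8 length classes (grey bars) and the 7 genes (coloured symbols). At 5 and 10 min Synj1, Cltc and Unc13a sit high with other long genes, and at 30 and 60 min Amph and Unc13a are the 2 that stand above the bar of their class by most.

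The test across libraries was a slope on log2(minutes + 1) over all 5 (edgeR quasi-likelihood test, Benjamini-Hochberg adjusted over 9444 genes). Its p-values measure the scatter of single libraries about that line, not a spread between replicates. With the deposited library factors 7 of 7 genes fell, where 94.2% of all genes tested did, so the count says nothing particular about them. The slope was -0.46 log2 units per unit of log2(minutes + 1) for Nsf (SE 0.0729, adjusted p = 0.000207) and -0.46 for Synj1 (SE 0.0887, adjusted p = 0.000469). It was -0.44 for Dnm1 (SE 0.0711, adjusted p = 0.000222) and for Cltc (SE 0.0976, adjusted p = 0.00102). The shallowest slopes were -0.38 for Stx1a (SE 0.0893, adjusted p = 0.0014), -0.31 for Unc13a (SE 0.0734, adjusted p = 0.00146) and -0.27 for Amph (SE 0.0715, adjusted p = 0.00274). The median over all genes was -0.41. Without the 0 min library 5 of the 7 kept their call, where 4154 of the 9444 genes tested were called lower. Amph (-0.11, adjusted p = 0.364) and Stx1a (0.07, adjusted p = 0.544) lost it. Of those that kept it, the slope of Cltc was then -0.67 and that of Synj1 -0.65. A slope on plain minutes called 0 of the 7 (adjusted p = 0.117 to 0.223) and 24 of all genes.

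Relative to the typical mRNA, that is with TMM scaling, no member was called: the slopes ran from -0.07 for Synj1 (SE 0.133, adjusted p = 0.890) to 0.13 for Amph (SE 0.0673, adjusted p = 0.481). In this edgeR test 1 of 9444 genes (0.0106%) was called lower and 0 higher, while 518 and 637 had an unadjusted p under 0.05; DESeq2 called 37 and 36, none of them a member. A straight line over log2 time does not show the course of the long genes, so single times are given too. At 10 min the log2 fold against 0 min was 1.40 for Cltc (1.37 to 1.43), 1.20 for Unc13a (1.11 to 1.28) and 1.15 for Synj1 (1.09 to 1.21). These 3 were at least 2-fold higher than at 0 min on this scale, as were 13.1% of all 7517 genes and 68.9% of the 476 genes of their length class. At 5 min Cltc alone of the 7 reached that fold (1.14, 1.12 to 1.16), against 6.11% of all genes and 28.9% of the 484 genes of its length class. In TPM of the second table Unc13a (1.33) and Synj1 (1.02) passed it at 5 min as well as Cltc, and at 10 min Synj1 did not (0.86). At 30 and 60 min 0 of 7 did in TMM-scaled counts, against 3.92% and 4.54%. At least 2-fold lower in TMM-scaled counts were 0 of 7 at each time, against 5.77%, 5.68%, 4.42% and 5.08% of all genes at 5, 10, 30 and 60 min. At 60 min the log2 TMM fold of Amph was 0.69 (0.56 to 0.82), that of Unc13a 0.63 (0.52 to 0.74) and that of Nsf -0.28 (-0.34 to -0.22), while the other 4 lay between -0.13 and 0.18. Without the 0 min library, which leaves a slope from 5 to 60 min, Cltc (-0.42, adjusted p = 0.0202) and Synj1 (-0.40, adjusted p = 0.0222) were called lower and Stx1a (0.32, adjusted p = 0.0224) higher, among 854 and 364 of all genes.

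**Figure D3:**
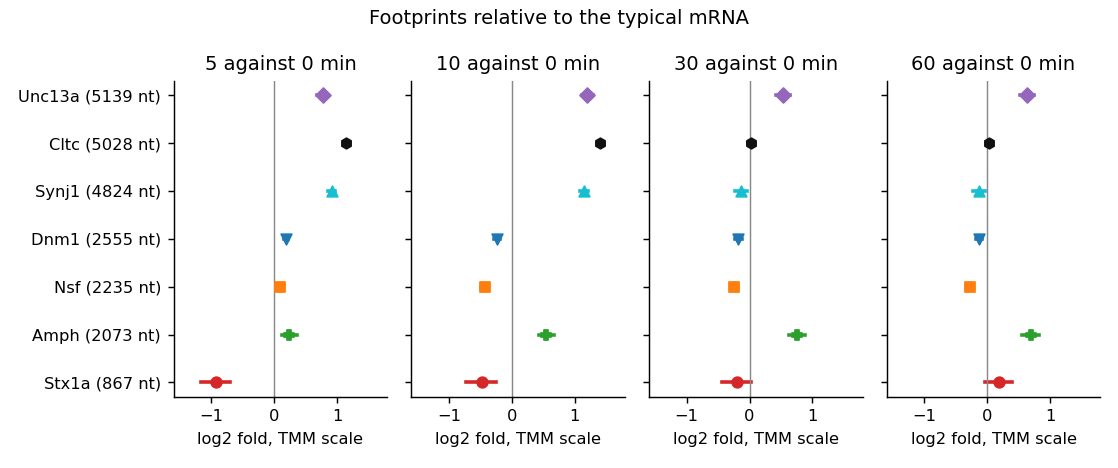
Log2 fold of TMM-scaled counts against 0 min at each time for the 7 genes, ordered by CDS length with the longest at the top; bars are exact 95% counting intervals, some narrower than the symbol, and the line marks the typical mRNA. The 3 long genes lie to the right at 5 and 10 min, and at 60 min Amph (0.69) and Unc13a (0.63) lie farthest to the right, with Stx1a at 0.18 and Cltc at 0.03.

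The second deposited table gives gene-level TPM, a share within each library, and it sets the members apart differently in places. Nsf had 1819, 2064, 1689, 2792 and 1002 TPM in time order, so 30 and 60 min differ far more than in its counts. At 30 against 0 min its log2 fold was 0.62 in TPM and -0.24 (-0.29 to -0.19) in TMM-scaled counts. Cltc had 1234, 4445, 5052, 1340 and 1078 TPM, a log2 fold of 1.85 at 5 min beside 1.14 in counts. The counted signal per unit of TPM was 0.834 for Nsf at 30 min and 1.83 at 60 min, where the medians over genes with at least 100 counts were 2.33 and 1.96. For Amph, which had 145, 191, 200, 229 and 212 TPM, the 2 tables gave near values at 60 min (0.54 in TPM, 0.69 in counts), and Stx1a had 465, 268, 310, 373 and 551 TPM. What sets the 2 tables apart for Nsf was not tested.

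The paralogs and partner chains show which courses families had in common. The SNAP-25 relatives Snap29 (90 counts at 0 min) and Snap47 (4274 counts) had ratios of 0.148 and 0.171 at 60 min. Snap23 is not in the count table and had 24, 10, 0, 14 and 15 TPM in time order. Of the Munc13 genes Unc13b, with 444 counts at 0 min, had 0.476, 0.574, 0.253 and 0.197. Unc13c, the form of cerebellar granule cells, had 75 counts at 0 min, ratios of 0.732, 0.902, 0.605 and 0.466, and an interval of 0.301 to 0.707 at 60 min.

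Among the dynamins, Dnm2, the form found in all tissues, kept the least. It had 557, 179, 70, 41 and 52 counts in time order and ratios of 0.333, 0.152, 0.0835 and 0.0959. At 60 min its interval, 0.0708 to 0.128, did not overlap that of Dnm1, 0.162 to 0.174. Dnm3, another neuronal dynamin, had 0.424, 0.210, 0.179 and 0.136. On the TMM-scaled slope Dnm2 had -0.22 (SE 0.0748, adjusted p = 0.274) with no call. Synj2 had 0.586, 0.576, 0.285 and 0.245, near Synj1 at 5 and 10 min and above it at 30 and 60 min. Bin1, the second amphiphysin, had 0.248, 0.235, 0.193 and 0.181, under Amph at every time. The sources used here do not say how reads shared between such paralogs were assigned.

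The clathrin light chains differed from the heavy chain at both ends of the series. Clta had 420, 67, 54, 74 and 184 counts in time order and ratios of 0.165, 0.155, 0.200 and 0.450 (0.376 to 0.537 at 60 min). Cltb had 227, 37, 36, 36 and 111 counts and ratios of 0.169, 0.192, 0.180 and 0.502 (0.397 to 0.633 at 60 min). With CDS of 747 and 636 nt both were low by 5 min like Stx1a, and both were higher at 60 min than at 5, 10 or 30 min. Since 600 nt is taken off each CDS, only a short stretch of either light chain CDS was counted. Whether the higher value at 60 min holds for the rest of the CDS was not tested. The signal at 60 over 30 min was 2.79 for Cltb (1.90 to 4.19) and 2.25 for Clta (1.71 to 2.99). These were ranks 1 and 2 of 4543 genes whose counts in the 2 libraries summed to at least 100. Of these genes 5 (0.110%) were at least 2-fold higher. The ranks depend on the filter: among 857 genes of their length class with at least 100 counts at 0 min, Cltb was rank 3 and Clta rank 6. By the 60 min ratio to 0 min they were ranks 15 and 24 of the same 857. The heavy chain gene Cltc had 0.818 (0.790 to 0.847) for 60 over 30 min, beside a median of 0.815 over all genes. In TPM Clta had 2974 at 60 min and 584 at 30 min, and Cltb 970 and 292. Neither slope passed the test with the deposited factors (Clta -0.23, SE 0.114, adjusted p = 0.0672; Cltb -0.21, SE 0.118, adjusted p = 0.0960; edgeR). The high value rests on the 60 min library alone.

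**Figure D4:**
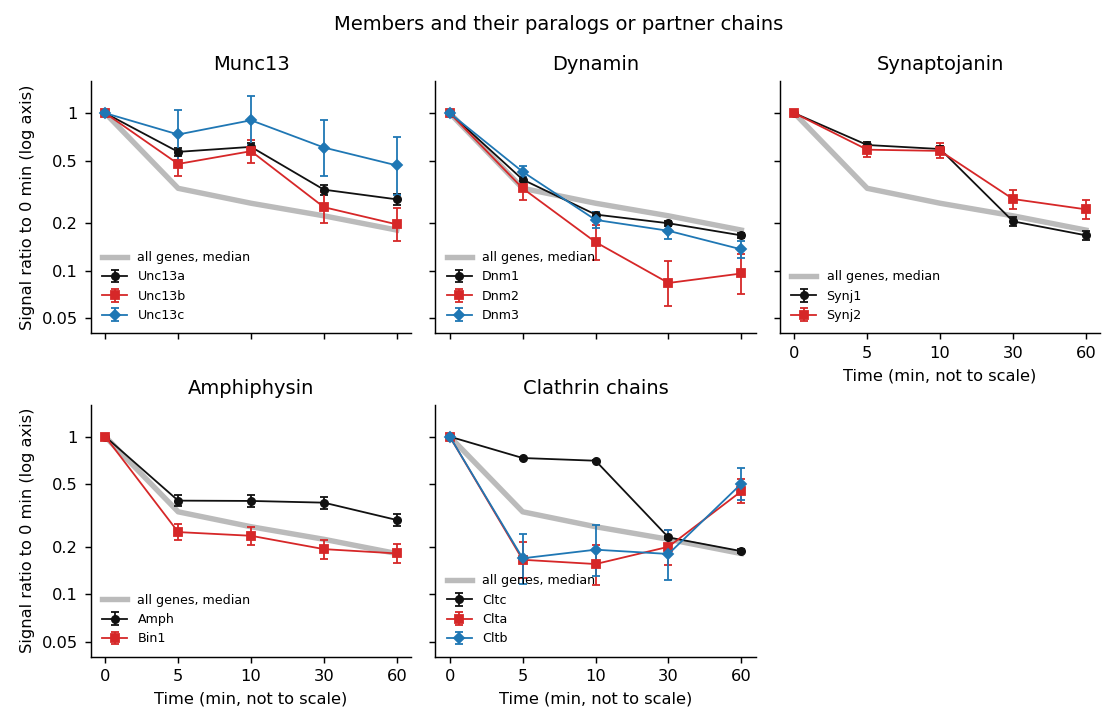
Signal ratio to 0 min (log axis) at each time for 5 of the members (black circles) and their paralogs or partner chains, with exact 95% counting intervals; the grey line is the median of all genes. Clta and Cltb are level from 5 to 30 min and reach 0.450 and 0.502 at 60 min, and Dnm2 lies lowest of the dynamins.

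**Figure D5:**
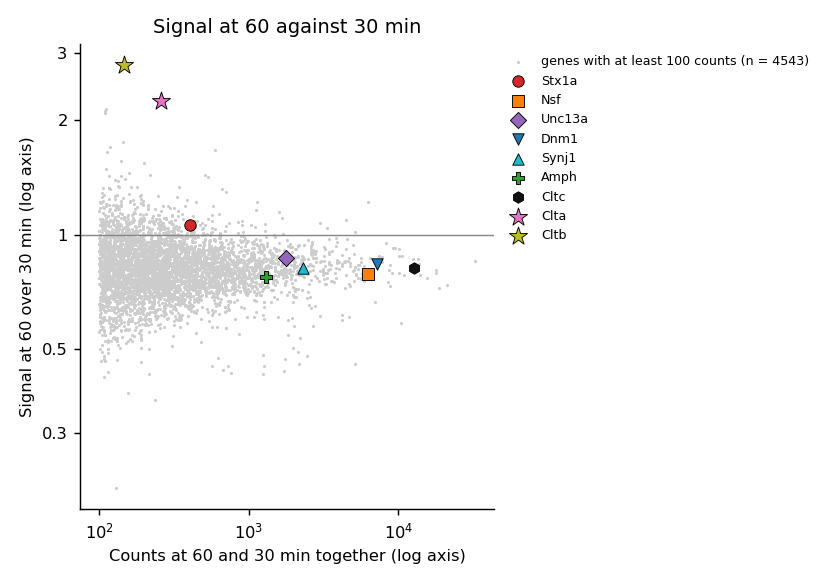
Signal at 60 over 30 min (log axis) against the counts of both libraries together (log axis) for the 4543 genes with at least 100 such counts. The 7 members lie between 0.776 and 1.06, and Cltb and Clta, at 2.79 and 2.25, are the 2 highest of these genes. Both were counted over a short stretch of CDS only.

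Of 99 other genes of vesicle fusion and retrieval, 87 were in the count table and 84 had enough counts to test. On the deposited scale 79 of the 84 fell and 0 rose (edgeR), where 94.2% of all genes fell, and on the TMM-scaled slope 0 were called; the median slopes were -0.41 and -0.01, beside -0.41 and -0.0041 over all genes. Without the 0 min library 39 were lower and 2 higher on the deposited scale, where 4154 and 48 of all 9444 genes were. On the TMM scale 8 were lower and 7 higher, where 854 and 364 of all 9444 genes were. A slope on plain minutes called 0 on either scale, where 24 and 1 of all genes were called lower. The 5 without a call, picked out after their values were seen, were Clta, Cltb, Unc13c, Ston1 and Sh3gl3. The lists differed in length and in their early ratios. The 13 measured SNAREs and SNAP adaptors had a median CDS of 867 nt and a median ratio of 0.192 at 5 min and 0.159 at 60 min. The 27 measured priming, docking and active zone genes had 3240 nt, 0.473 and 0.197. The 23 coat and adaptor genes had 2565 nt, 0.407 and 0.182, and the 24 scission and uncoating genes had 1778 nt, 0.294 and 0.190.

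Single genes at the ends of this list show the same range as the members, and more. Among the 78 with at least 100 counts at 0 min, the lowest at 5 min were Rab3a, the GTPase of synaptic vesicles (0.144, 0.119 to 0.172), Napb, the neuronal SNAP adaptor of NSF (0.144, 0.128 to 0.161), and Stx12, an endosomal syntaxin (0.152, 0.120 to 0.190). The highest at 5 min were the giant active zone scaffolds Pclo (0.805, 0.776 to 0.836) and Bsn (0.763, 0.734 to 0.792), and Pi4ka, a lipid kinase (0.695, 0.656 to 0.736). Pclo, with a CDS of 14592 nt, was still at 0.604 at 30 min and then at 0.276 at 60 min. The lowest at 60 min was Bmp2k, a protein kinase (0.0656, 0.0383 to 0.106). Next were Pip5k1a, which makes the lipid that synaptojanin degrades (0.0915, 0.0725 to 0.114), and Stx7, a late endosomal syntaxin (0.0952, 0.0667 to 0.132). Beside the light chains, the highest at 60 min was Doc2b, a calcium sensor of release (0.411, 0.313 to 0.535), which had 200 counts at 0 min and 80 at 60 min.

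Genes outside the 7 with the most similar 4 log2 ratios were sought among 2929 genes with at least 500 counts at 0 min. The nearest to Nsf were Mkln1 (distance 0.05) and Exoc5 (0.10), and to Dnm1 Tcf25 (0.09) and Acap3 (0.10). They had the most such neighbours of the 7, with 59 and 56 genes within a distance of 0.25. The nearest to Synj1 were Vars (0.09) and Rictor (0.12), to Cltc Hecw2 (0.13) and Chd5 (0.16), and to Stx1a Gnb5 (0.08) and Eif3h (0.16). Stx1a had 10 genes within 0.25, the fewest of the 7, and Unc13a and Amph had 13 each. These numbers depend on the count filter and on counting error, so they do not measure how common a course is. Stx1a had the fewest counts, 172 to 220 in treated libraries, and lay within the quartiles of its length class at all 4 times. The nearest to Unc13a were Peg3 (0.15) and Cux2 (0.16). The nearest to Amph were Syp (0.12), with ratios of 0.363, 0.385, 0.379 and 0.303, and Slc32a1 (0.12), with 0.402, 0.371, 0.382 and 0.315, at CDS lengths of 945 and 1578 nt.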

How the data were processed

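Ribosome-protected fragments of 5 slice libraries, 1 per time on HHT, were read in 75 bp runs after RNase digestion and a sucrose gradient, per the labels' protocols. The submitters' processing notes name SAMtools 0.0.19, TopHat2 2.0.9, Bowtie2 2.1.0, Trimmomatic 0.32, cutadapt 1.7.1 and the build mm10, and the deposited names add RSEM. Which step each did, and its settings, the sources used here do not give. The authors deposited expected counts for 10329 genes, already whole numbers, whose CDS span 603 to 24099 nt and whose lowest count at 0 min is 11. In the same table the authors deposited a signal, which equals the count over the CDS length less 600 nt and over a library factor (1, 0.965, 0.828, 0.882 and 0.973 in time order, of unstated origin), and its ratio to 0 min. Ratios printed here were computed from the signal and equal the deposited ratio. The authors deposited a second table with a score, TPM rounded to whole numbers, for 18527 genes. Total counts were lowest at 60 min, but the precision for a gene follows its own counts. Stx1a, for 1, had 172 counts at 10 min and 220 at 60 min.

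Slopes used edgeR 4.0.16 in R 4.3.3 on genes with a mean of at least 10 counts, with 3 residual degrees of freedom, called at an adjusted p under 0.05. TMM folds used a prior count of 2. Two-library folds carry no p-value; a 2-fold difference was counted among genes whose counts in the 2 libraries summed to at least 100. DESeq2 1.42.0, limma 3.58.1 and other scalings, filters and left-out libraries were alternatives. Methods were tested on simulated data. RefSeq on GRCm38.p6 held 10293 of the 10329 transcripts, with all 7 members under the same symbol. Named genes were the members, their paralogs (1 is not reported here), the 3 highest and 3 lowest of the other pathway genes at 5 and 60 min, and the 2 nearest courses per member. Members, lists and tests were chosen with earlier results of these data known. Pathway lists came from textbook knowledge.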

Additional observations from a re-analysis of the deposited data

How the results depend on the processing

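No paired analysis was possible because each time has 1 library and the labels give no replicate numbers. With the deposited factors, 8900 genes were called lower and 0 higher; 24 were lower in a slope on plain minutes, and leaving out 1 library gave 4154 to 9092 lower and 0 to 48 higher; 4154 and 48 came without the 0 min library. Members called lower were 7, but 0 on minutes and 5 to 7 with a library left out. The slope of Stx1a had the opposite sign without the 0 min library (0.067, against -0.50 to 0.07 over all left-out libraries). On the TMM scale 1 gene was lower and 0 higher; DESeq2 gave 37 and 36, DESeq2 size factors in edgeR 3 lower, and leaving out 1 library 0 to 854 lower and 0 to 364 higher. Members called on that scale were 0 lower and 0 higher, and 0 to 2 lower and 0 to 1 higher with a library left out, the calls coming without the 0 min library. With mitochondrially encoded genes as scale 8859 genes were lower, and 25 of 28 member ratios stayed within counting error. The other 3 were Nsf, Dnm1 and Cltc at 5 min. The factors of this scale differed from the deposited ones by only 3.18%, 0.102%, -0.686% and 0.376% at 5, 10, 30 and 60 min. The setting is thus nearly the same scaling, and its result is no independent check. The TMM fold of Nsf at 30 min turned to 0.62 in TPM. Of the 84 member folds under other settings 20 moved beyond counting error, 19 of them in TPM: Dnm1 at 5 min had 0.84 in TPM and 0.19 in counts, Unc13a at 5 min 1.33 and 0.77, and Nsf at 60 min -0.86 and -0.28. The cause was not tested. Genes within 10% of each CDS length, in place of the length class, left 22 of 28 member values within counting error. Depth limits Stx1a most of the 7, with 172 to 220 counts in treated libraries. Every setting was planned.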

Other observations

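Besides Cltb and Clta, the genes at least 2-fold higher at 60 than at 30 min were Tpd52 (78 counts at 60 min and 33 at 30 min, ratio 2.14, 1.41 to 3.32), 5730409E04Rik (77 and 33, 2.11, 1.39 to 3.28) and Cilp2 (76 and 33, 2.09, 1.37 to 3.24). They were looked up after the light chains were seen, and of the 5 only Cilp2 has a CDS of over 1000 nt (3489 nt). With 600 nt taken off, Tpd52 (744 nt) and 5730409E04Rik (693 nt) were, like the light chains, counted over a short stretch of CDS only. By TPM, which counts each gene as a share of its library, the same step was 5.09-fold for Clta and 3.32-fold for Cltb, ranks 5 and 16 of the same 4543 genes.

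Several vesicle genes absent from the count table had TPM values, of which a pair was picked after the values were seen. Stxbp6, a syntaxin-binding protein gene, had 88, 306, 188, 207 and 111 TPM at 0, 5, 10, 30 and 60 min, and Vamp7, a vesicle SNARE of late endosomes, had 42, 45, 14, 31 and 66 TPM. Rims1, an active zone scaffold picked out for its length, is listed with a CDS of 1877 nt, 1 of the 22 lengths that are not a multiple of 3, and had ratios of 0.657, 0.728, 0.307 and 0.224. At 10 min that lies above 0.316, the upper quartile of genes with a CDS of 1500 to under 2000 nt. Whether 1877 nt is its full CDS was not tested, so this class may not be the right one. Genes of 4000 to under 6000 nt had medians of 0.604, 0.601, 0.252 and 0.200 at 5, 10, 30 and 60 min. Rims2, listed with 4719 nt, had 0.591, 0.532, 0.241 and 0.191.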
